A study of Mus musculus with 18 samples.

Results

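In mice whose Foxp3 gene is disrupted by a GFP reporter, GFP RNA is also found in some conventional CD4 T cells (Tconv). The cells described here are the activated Tconv of the spleens of such mice, divided by whether the deposited data list at least 1 unique molecular identifier (UMI, 1 counted RNA molecule) of GFP for the cell or none. They were chosen by the authors' annotation (activated Tconv, without natural killer T cells) in both ∆Foxp3 samples of the first experiment and by the GFP count, so the GFP count itself is a description and not a result. Sample A held 162 GFP-positive and 490 GFP-negative activated Tconv, and sample B held 124 and 393, which makes 286 GFP-positive cells of 1169 activated Tconv, of 4732 cells of these samples and of 26652 cells in the 18 samples of the series. The first GFP-positive cells past the threshold, with exactly 1 UMI, numbered 90 in sample A and 66 in sample B, and the cells just outside it were the 490 and 393 with 0.

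The ∆Foxp3 mice were males of 3 weeks on the strain B6 Foxp3DeltaEGFPiCre x ROSA-YFP, in which EGFP and Cre sit in the disrupted Foxp3 gene and a YFP reporter at the ROSA locus. Live TCRβ+ CD4+ splenocytes were sorted and read with the 3′ single-cell V2 kit in the first experiment (samples A and B) and the V3 kit in a second experiment (samples 1 and 2), on mice of the same strain, sex and age. The second experiment was used to look at the same contrast in samples that took no part in choosing the cells. WT males of 3 weeks with Foxp3-IRES-GFP, read with the V2 kit, and resting Tconv of the same ∆Foxp3 samples served as references. Samples 1 and 2 carry the same hashtag in different channels and may come from 1 mouse, and no label states separate animals for A and B, so the tests may compare technical rather than animal-to-animal spread. The deposited YFP count was 0 in every cell, and GFP and YFP sequences are nearly identical. Whether a GFP UMI came from the Foxp3 locus or from the ROSA-YFP reporter therefore cannot be told apart.

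Foxp3 is the transcription factor of regulatory T cells (Treg), the CD4 T cells that restrain immune responses. In Treg it acts together with other factors, among them Helios and Eos of the Ikaros family, and mice that lack it develop a fatal lymphoproliferative disease with many activated Tconv. A reporter in the disrupted allele is designed to mark cells that switch the Foxp3 locus on without receiving the protein.

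Within the activated Tconv, GFP-positive cells carried more Ikzf2 (Helios) RNA and less Ifitm3 RNA than GFP-negative cells of the same sample, in all 4 samples of both experiments, with depth matched closely in the first experiment and less so in the second. Both differences kept their sign, but not their call, in the settings with the fewest cells and in the fit of the matched sums without the pairing by sample. Most other differences were smaller, were not called in the first experiment alone, or rested on a few cells. The first experiment's fit recovered 0 of 200 simulated 2-fold changes, so a missing call there does not show a lack of difference. Over the 4 samples, 5 of 28 tested genes of the Treg list were called higher, Ikzf2 among them, and 1 lower. Over all genes tested 1.85% were called, and the Treg list's median lay above theirs. The cell cycle genes that were called higher lost their calls when the annotated clusters were balanced, which the annotation of 1 cluster as dividing cells favours.

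A share of GFP-positive cells depends on depth and on free RNA in the droplets, so it was set beside other classes of the same samples. In sample A, 24.8% of activated Tconv held a GFP UMI (162 of 652, exact 95% binomial interval 21.6 to 28.3%, median 3367 UMIs per cell), against 6.75% of resting Tconv (161 of 2384, 5.78 to 7.84%, median 3092 UMIs). In sample B the shares were 24.0% (124 of 517, 20.4 to 27.9%, median 2918 UMIs) and 8.35% (65 of 778, 6.51 to 10.5%, median 2815 UMIs). Cells that the authors annotated as Treg held GFP in 38.1% and 38.9%, and natural killer T (NKT) cells in 27.7% (18 of 65, 17.3 to 40.2%, median 2945 UMIs) and 32.4% (11 of 34, 17.4 to 50.5%, median 2649 UMIs). In the first experiment the share in activated Tconv thus stood above that of resting Tconv but not above that of NKT cells, while in WT mice of the same experiment 4.35% and 5.07% of activated Tconv, 0.503% and 0% of NKT cells and 26.1% and 36.9% of Treg held a GFP UMI. The 0 of 113 WT NKT cells of sample B allows a share of up to 3.21%. In the second experiment 41.3% and 46.9% of activated Tconv were GFP-positive (184 of 446 and 202 of 431), against 35.7% and 31.7% of resting Tconv and 42.9% and 38.5% of NKT cells (6 of 14 and 5 of 13), so that activated Tconv lay below NKT cells in sample 1 and above them in sample 2. With every cell thinned to 1500 UMIs, which no cell falls short of, the expected shares were 14.9% and 15.8% of activated against 4.04% and 5.83% of resting Tconv in the first experiment, and 21.8% and 25.5% against 18.7% and 16.9% in the second. These intervals cover counting error only.

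**Figure D1:**
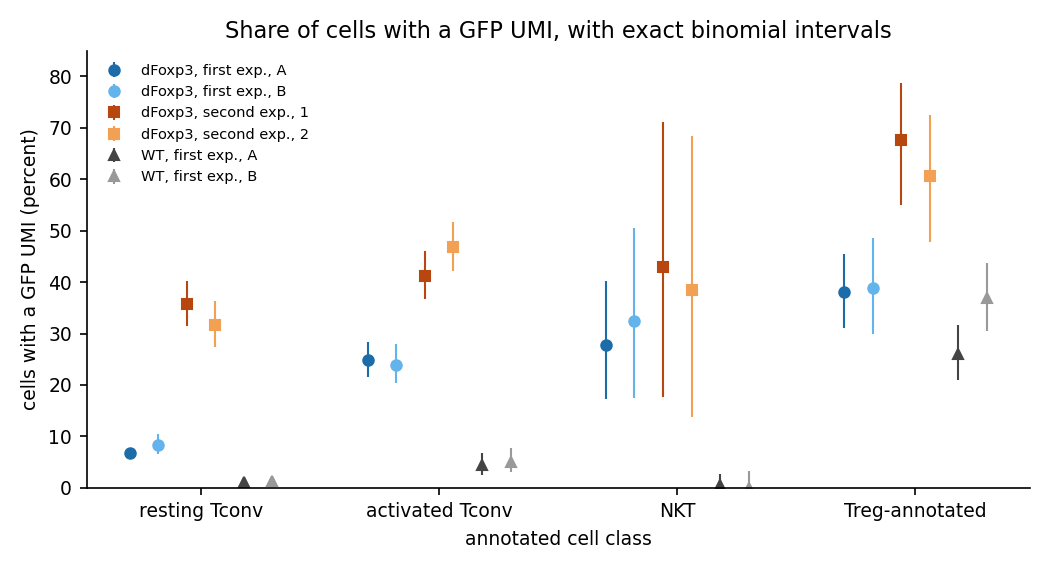
Percent of cells with a GFP UMI (vertical axis) in 4 annotated classes (horizontal axis), with 1 point per sample and exact 95% binomial intervals as bars, for ∆Foxp3 samples of both experiments and WT samples of the first. Activated Tconv of ∆Foxp3 samples A and B lie at 24.8% and 24.0%, above resting Tconv at 6.75% and 8.35% and within the intervals of NKT cells.

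The GFP-positive cells were spread over the authors' clusters of activated Tconv and were not a cluster of their own. In sample A the share was 28.6% in follicular helper cells (Tfh), 27.4% in Th1 cells, 25.0% in dividing and 24.5% in tissue-like cells, 12.5% in the cluster named activated 2 and 36.4% in the small Irf7 cluster (4 of 11). In sample B it was 33.7% in dividing cells, 27.6% in activated 2, 26.8% in Tfh, 24.2% in tissue-like and 10.1% in Th1 cells, and 28.6% in the Irf7 cluster (2 of 7). The Th1 and activated 2 clusters thus took opposite places in A and B. In samples 1 and 2 the share was 54.7% and 54.9% in dividing cells, whose median depth of 10281 and 15142 UMIs was the highest of the clusters, 58.1% and 49.1% in Tfh and 27.5% and 37.5% in Th1 cells.

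Foxp3 and Cre UMIs were few. Before matching, GFP-positive and GFP-negative cells held 4 and 2 Foxp3 UMIs and 2 and 1 Cre UMIs in sample A, and 2 and 3 Foxp3 UMIs and 2 and 3 Cre UMIs in sample B. In sample 1 they held 8 and 0 Foxp3 UMIs and 8 and 3 Cre UMIs, and in sample 2 they held 16 and 1 Foxp3 UMIs and 16 and 0 Cre UMIs. In the second experiment these UMIs lay mostly in the GFP-positive cells, and in the first there were too few to show a difference.

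GFP-positive cells were deeper than GFP-negative cells (median 3639 against 3270 UMIs in sample A, 3188 against 2834 in sample B), so each was matched with 1 GFP-negative cell of its sample of the nearest total. All 286 GFP-positive cells found a partner, and the summed UMIs were 569787 and 569158 in A and 390486 and 390572 in B. In sample 1 the matched sums were 1467424 and 1445639 UMIs, but in sample 2 they stayed unequal (2412421 and 2148025 UMIs), because deep GFP-negative cells ran out. Levels are given as CPM, a gene's UMI count scaled by the total of its sum. Sums were compared within samples with edgeR's quasi-likelihood test with Benjamini-Hochberg adjustment over all genes tested, and a gene is called at an adjusted p under 0.05.

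In the first experiment, 5 genes were called higher and 2 lower in GFP-positive cells, of 4955 tested (0.141%, and 307 genes at an unadjusted p under 0.05). The higher genes were Ikzf2, Cd7, Ccl3, Ccl4 and Il10, and the lower genes were Ifitm3 and Furin. In the second experiment 126 genes were called higher and 79 lower of 8693 tested (2.36%). Of the 7 genes of the first experiment, 6 could be tested in the second, all 6 had the same sign there, and 4 were called (Ikzf2, Ifitm3, Ccl3 and Ccl4). In the fit of all 4 samples, 86 genes were called higher and 48 lower of 7246 tested (1.85%). This count was 204 without sample A, 56 without sample 1 and 79 without sample 2. Without cells that held 2 or more UMIs of B cell, plasma cell, myeloid or erythroid markers or had a Scrublet doublet score in the top 10% of their sample, 113 GFP-positive cells were left and 0 of 1776 genes were called (83 at an unadjusted p under 0.05). Ikzf2 then gave 0.98 (edgeR adjusted p = 0.535) and Ifitm3 -2.32 (edgeR adjusted p = 0.117). With only the Scrublet criterion, 637 cells were left and 85 genes were called, 84 of them among the 134. With GFP-positive cells of exactly 1 GFP UMI, 211 in all, 0 of 2821 genes were called (146 at an unadjusted p under 0.05). Fitted without the pairing by sample, 0 genes were called (107 at an unadjusted p under 0.05), with Ikzf2 at 1.35. Of the 134 genes, 76 also had a share of cells with a UMI that differed the same way in all 4 samples, and 41 in 3 of them. These shares come from the same matched cells as the calls, so they are not separate support. With 2 samples the fit has 1 residual degree of freedom, so its p-values lean on the spread estimated over all genes. In simulated sums, the first experiment's fit recovered 0 of 200 genes changed 2-fold and 196 of 200 changed 4-fold. The 4-sample fit recovered 169 and 200. DESeq2 with the same block called 3 genes in the first experiment, 1 in the second and 26 in the 4 samples, and all 26 were among the 134.

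Ikzf2 encodes Helios, an Ikaros family transcription factor that is high in thymus-derived Treg. Its level in the first experiment was 259.7 CPM in GFP-positive and 104 CPM in GFP-negative cells of sample A, and 215 and 87.1 CPM in sample B. In the second it was 353 and 148 CPM in sample 1, and 339.9 and 115 CPM in sample 2. All 4 GFP-positive sums lay above all 4 GFP-negative sums. The log2 fold change was 1.31 ± 0.16 (SE, n = 2 samples, edgeR adjusted p = 0.0159) in the first experiment, 1.41 ± 0.09 (edgeR adjusted p = 1.23e-46) in the second and 1.39 ± 0.09 (n = 4, edgeR adjusted p = 1.04e-11) over all samples. The difference was carried by many cells: 58.0% of GFP-positive against 25.3% of GFP-negative cells held an Ikzf2 UMI in A, 46.8% against 19.4% in B, 82.6% against 41.3% in sample 1 and 88.1% against 49.0% in sample 2. Treg-annotated cells of the same samples stood at 215, 258, 556 and 521 CPM, which lay below GFP-positive activated Tconv in A and above them in the other 3 samples. The resting Tconv stood at 18.5, 30.2, 177 and 161 CPM. Activated Tconv of WT mice held 76.9 and 57.5 CPM.

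Ikzf4 encodes Eos, another Ikaros family member that works with Foxp3 in Treg. It was too low for the first experiment's fit. Its level was 19.3 CPM in GFP-positive against 15.8 CPM in GFP-negative cells of A, 25.6 against 2.56 CPM in B, 25.9 against 4.15 CPM in sample 1 and 22.8 against 2.33 CPM in sample 2. Samples B, 1 and 2 showed the difference and sample A hardly did. The log2 fold change over the 4 samples was 2.32 ± 0.35 (SE, edgeR adjusted p = 0.000123).

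Ifitm1, Ifitm2 and Ifitm3 encode interferon-induced transmembrane proteins that hinder the entry of viruses, and lie side by side on chromosome 7. Ifitm2 is annotated at chr7:140954837-140955987 and Ifitm3 at chr7:141009586-141010770, both on the minus strand, and Ifitm1 at chr7:140967221-140969825 on the plus strand (mm10, GENCODE). Their start regions are shown because the 3 neighbours were all called lower over the 4 samples, though Ifitm1 was not lower in sample A. Each runs from 250 bases before to 50 bases after the start that RefSeq gives on GRCm38.p6, 5′ to 3′ on the gene's strand. The RefSeq start of Ifitm1 lies inside the GENCODE gene, so its window does not cover the bases before the GENCODE start. The capitals mark matches to the core of the interferon-stimulated response element, which is GAAA, any 2 bases and GAAA again, searched on both strands. The windows are chr7:140967826-140968125 (plus), chr7:140955912-140956211 (minus) and chr7:141010695-141010994 (minus).
Ifitm1: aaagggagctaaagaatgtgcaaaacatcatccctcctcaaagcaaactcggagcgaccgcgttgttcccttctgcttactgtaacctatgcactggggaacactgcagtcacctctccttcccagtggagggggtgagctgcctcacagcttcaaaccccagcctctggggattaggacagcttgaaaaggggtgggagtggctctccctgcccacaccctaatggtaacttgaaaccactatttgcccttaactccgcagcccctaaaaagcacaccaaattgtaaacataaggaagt
Ifitm2: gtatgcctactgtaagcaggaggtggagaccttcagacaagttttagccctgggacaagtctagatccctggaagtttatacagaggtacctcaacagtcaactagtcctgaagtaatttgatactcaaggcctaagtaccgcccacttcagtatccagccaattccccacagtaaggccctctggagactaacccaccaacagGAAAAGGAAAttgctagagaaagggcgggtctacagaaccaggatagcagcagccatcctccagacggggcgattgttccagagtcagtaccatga
Ifitm3: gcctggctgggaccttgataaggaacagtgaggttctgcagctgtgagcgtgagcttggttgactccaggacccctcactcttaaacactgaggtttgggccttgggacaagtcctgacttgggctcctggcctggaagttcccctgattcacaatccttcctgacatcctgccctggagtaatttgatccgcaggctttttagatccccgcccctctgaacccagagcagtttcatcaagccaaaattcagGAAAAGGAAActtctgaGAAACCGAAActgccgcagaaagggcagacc
The Ifitm3 window held 2 matches, the Ifitm2 window 1 and the Ifitm1 window 0, and 3.44% of 32851 RefSeq start windows of 300 bases hold at least 1. Cores of STAT sites (TTC, any 3 bases and GAA) and forkhead sites (TGTTTAC) were searched too and are not marked. The Ifitm3 window held 1 STAT match and the Ifitm1 window 1 forkhead match, beside 8.30% and 3.65% of the windows. A match is a match of letters only.

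In the fit of the 4 samples, Ifitm3 had the lowest adjusted p of the genes called lower. Its level was 31.6 CPM in GFP-positive against 80.8 CPM in GFP-negative cells of sample A and 61.5 against 320.04 CPM in B. In sample 1 it was 86.5 against 376 CPM, and in sample 2 it was 107 against 256 CPM. The GFP-negative sum was higher in each sample, and across samples the ranges overlapped only through sample A. The log2 fold change was -2.01 ± 0.25 (SE, n = 2, edgeR adjusted p = 0.0159) in the first experiment, -1.65 ± 0.10 (edgeR adjusted p = 1.6e-55) in the second and -1.71 ± 0.12 (n = 4, edgeR adjusted p = 1.85e-10) over all. Fewer GFP-positive cells held an Ifitm3 UMI: 6.17% against 8.02% in A, 5.65% against 23.4% in B, 16.8% against 40.2% in sample 1 and 21.8% against 31.7% in sample 2. In resting Tconv the same contrast gave -0.33 ± 0.14 and was not called, and the difference between activated and resting Tconv was itself called (-1.37, edgeR adjusted p = 0.000765).

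Ifitm2 gave 72.0 against 116 CPM in A, 215 against 376 CPM in B, 177 against 683 CPM in sample 1 and 218 against 375 CPM in sample 2. Its level was lower in GFP-positive cells of each sample, with a log2 fold change of -1.19 ± 0.13 over the 4 samples (SE, edgeR adjusted p = 1.25e-06), and was not called in the first experiment (-0.77 ± 0.16, edgeR adjusted p = 0.223). An Ifitm2 UMI was held by 16.0% against 17.3% of cells in A, 14.5% against 25.0% in B and 34.8% against 51.6% in sample 1. In sample 2 it went the other way, with 50.0% against 45.5%. Ifitm1 gave 119 against 109 CPM in A, 12.8 against 297 CPM in B, 14.3 against 307 CPM in sample 1 and 40.2 against 116 CPM in sample 2. Sample A did not share the difference of the other 3 samples in Ifitm1. The log2 fold change was -2.19 ± 0.31 over the 4 samples (SE, edgeR adjusted p = 5.24e-05), but only 2.72% to 9.78% of the cells of any sum held an Ifitm1 UMI, and 1 cell gave 148 of 444 UMIs in the GFP-negative sum of sample 1. Of 29 tested members of the interferon response list, 0 were called higher and 3 lower, the Ifitm genes, beside 1.85% called over all genes tested. Of the 29, 7 had an edgeR unadjusted p under 0.05, and the list's median log2 fold change was 0.01 beside 0.00 over all genes tested. In the second experiment 4 of 27 were called lower, beside 2.36% called over all genes tested. The fourth was Ly6a, a surface antigen gene (-0.27 ± 0.05, edgeR adjusted p = 7.8e-05).

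**Figure D2:**
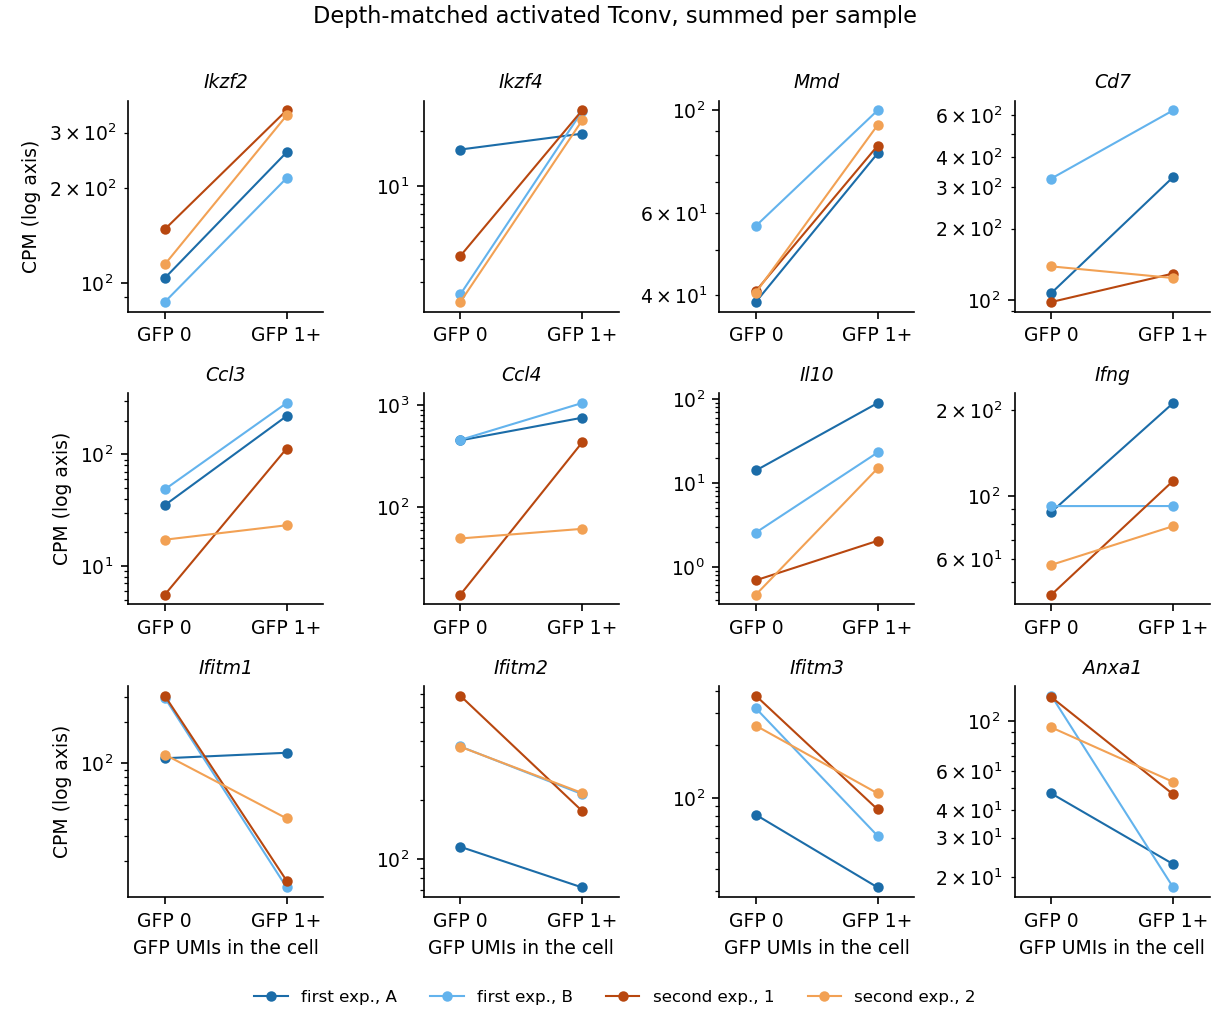
CPM (log axis) of 12 genes in depth-matched GFP-negative (GFP 0) and GFP-positive (GFP 1+) activated Tconv, with 1 line per sample joining its sums. Ikzf2, Mmd, Ccl3, Ccl4, Ikzf4 and Il10 lie higher, and Ifitm2, Ifitm3 and Anxa1 lower, in the GFP-positive sum of each sample, while the slopes of Cd7 and Ifitm1 differ in sign between samples and those of Ifng are level in sample B.

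Ccl3 and Ccl4 encode chemokines that draw in T cells and macrophages. Ccl3 stood at 221 against 35.1 CPM in sample A, 289 against 48.6 CPM in B, 113 against 5.53 CPM in sample 1 and 23.2 against 17.2 CPM in sample 2. The log2 fold change was 2.60 ± 0.19 in the first experiment (SE, n = 2, edgeR adjusted p = 0.000364) and 2.38 ± 0.26 over the 4 samples (edgeR adjusted p = 1.25e-06). Matched within clusters, the first experiment gave 1.33 (edgeR adjusted p = 0.0512). Few cells held its RNA. In A, 14 of 162 GFP-positive and 6 of 162 GFP-negative cells held a Ccl3 UMI, but in B it was 7 of 124 against 12 of 124, so in B more GFP-negative cells held the RNA and a few GFP-positive cells held more of it. A single cell gave 59 of the 126 Ccl3 UMIs of GFP-positive cells in A and 70 of 113 in B. With the top cell of each sum left out, Ccl3 stood at 118 against 17.7 CPM in A and 111 against 33.6 CPM in B.

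Ccl4 gave 756 against 453 CPM in A, 1055 against 458 CPM in B, 433 against 13.8 CPM in sample 1 and 61.3 against 49.3 CPM in sample 2. The log2 fold change was 0.95 ± 0.12 in the first experiment (SE, edgeR adjusted p = 0.0159) and 1.48 ± 0.27 over the 4 samples (edgeR adjusted p = 0.00177). Matched within clusters, the first experiment gave 0.11 for Ccl4 (edgeR adjusted p = 0.968). A single cell held 245 of its 431 UMIs in GFP-positive and 233 of 258 in GFP-negative cells of A, 195 of 412 and 120 of 179 in B, 406 of 635 and 16 of 20 in sample 1, and 67 of 148 and 98 of 106 in sample 2. With the top cell of each sum left out, Ccl4 stood at 328 against 44.2 CPM in A, 560.3 against 152 CPM in B, 157 against 2.79 CPM in sample 1 and 33.7 against 3.75 CPM in sample 2, so each sample kept its direction. In B, 11 of 124 GFP-positive and 23 of 124 GFP-negative cells held a Ccl4 UMI.

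Il10 encodes interleukin 10, an anti-inflammatory cytokine made by Treg and by activated effector cells. It was called in the first experiment (log2 fold change 2.70 ± 0.37, SE, edgeR adjusted p = 0.0159) on 51 against 8 UMIs in A and 9 against 1 in B. The 51 UMIs came from 2 cells, 41 of them from 1, while 3 GFP-negative cells held the 8. In B, 3 GFP-positive cells and 1 GFP-negative cell held an Il10 UMI. Samples 1 and 2 held 3 against 1 and 36 against 1 UMIs, below the filter of the second experiment. The share of cells with an Il10 UMI thus differed by 1 or 2 cells in each sample.

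Cd7 encodes a T cell surface protein of the immunoglobulin superfamily, and Furin a protease that cuts proproteins. Cd7 stood at 329.9 against 107 CPM in A and 629.98 against 325 CPM in B, and was called in the first experiment (log2 fold change 1.22 ± 0.16, SE, edgeR adjusted p = 0.0159). Matched within clusters it gave 0.68 (edgeR adjusted p = 0.0204). In the second it stood at 129 against 98.2 CPM and 124 against 139 CPM (0.06 ± 0.11, edgeR adjusted p = 0.935). The difference between the experiments was called for Cd7 (-1.15, edgeR adjusted p = 0.0102). Of 7940 genes tested for that difference 3 were called (0.0378%), and the other two were Lag3 (1.20) and Cxcl10 (-2.25). Furin stood at 33.3 against 104 CPM in A and 35.9 against 138 CPM in B (-1.78 ± 0.24, SE, edgeR adjusted p = 0.0159), but at 55.9 against 55.3 CPM in sample 1 and 39.0 against 56.8 CPM in sample 2 (-0.30 ± 0.16, edgeR adjusted p = 0.505). Both genes differed in the first experiment and were not called in the second.

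**Figure D3:**
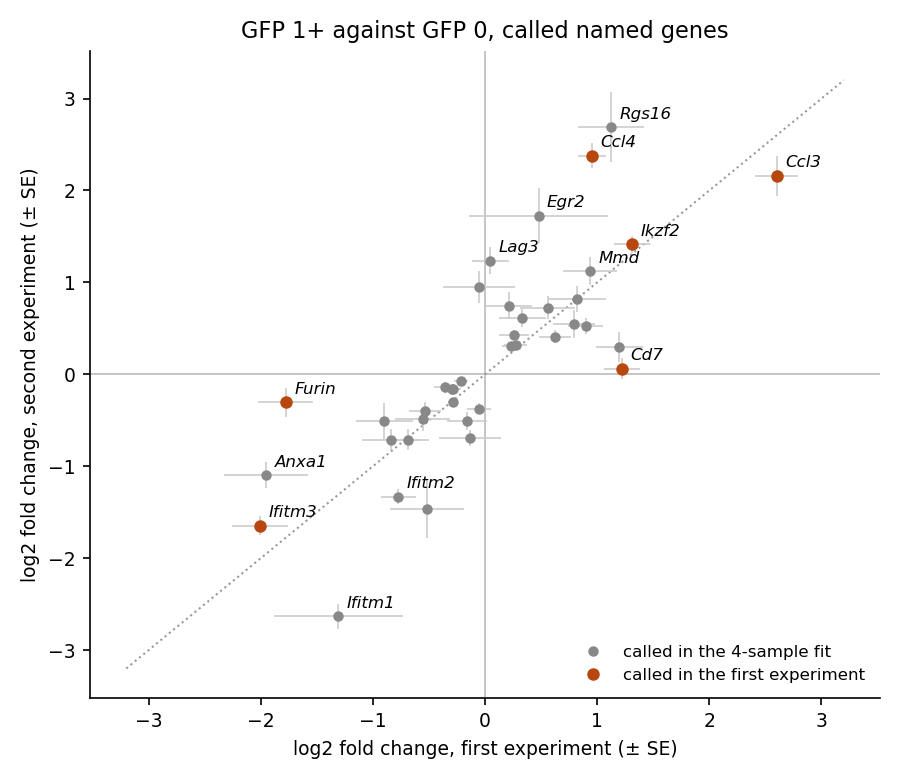
Log2 fold change of GFP-positive against GFP-negative activated Tconv in the first (horizontal axis) and the second experiment (vertical axis), with SE bars, for the 39 named genes that were called in the first experiment or in the 4 samples and tested in both. 38 of them have the same sign on both axes, which their calling in the joint fit favours, and Ikzf2 and Ifitm3 lie close to the dotted line of equal values while Cd7 and Furin lie near 0 in the second experiment.

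Several genes that missed the threshold or were too low to be tested in the first experiment were called over the 4 samples. Mmd, a membrane protein gene of the progestin and adipoQ receptor family, was higher in each sample, from 80.7 to 99.9 CPM in GFP-positive and from 38.7 to 56.3 CPM in GFP-negative cells, so that the groups did not overlap (log2 fold change 1.08 ± 0.13, SE, edgeR adjusted p = 4.78e-06). Rgs16, which limits signalling of G protein-coupled receptors, was higher with 1.85 ± 0.28 (edgeR adjusted p = 0.000123). Rln3, a relaxin family hormone gene too low for the first experiment's fit, was higher with 1.64 ± 0.25. It held 7 against 5 UMIs in A, 23 against 5 in B, 32 against 11 in sample 1 and 80 against 21 in sample 2. Cd81, a tetraspanin gene, was higher in each sample with 0.70 ± 0.12 (edgeR adjusted p = 0.000485). Anxa1, which encodes the phospholipid-binding protein annexin A1, was lower in each sample, from 17.9 to 53.5 CPM in GFP-positive and from 47.4 to 131 CPM in GFP-negative cells (-1.23 ± 0.16, edgeR adjusted p = 1.62e-05). Arl4c, a small GTPase gene, was lower with 87.1 to 105 CPM against 151 to 164 CPM, again without overlap (-0.70 ± 0.09, edgeR adjusted p = 2.88e-05). The nuclear long noncoding RNA Malat1 was lower by a small amount in each sample (-0.29 ± 0.03, edgeR adjusted p = 4.91e-07). Of 11 mitochondrially encoded genes, 4 were called lower, beside 1.85% called over all genes tested. Among them was mt-Nd1 of complex I (-0.21 ± 0.04). The median share of mitochondrial UMIs in the matched cells was 2.20% against 2.50% in A, 1.97% against 2.29% in B, 4.84% against 5.01% in sample 1 and 4.81% against 4.86% in sample 2, and its part in the result was not tested.

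The level of Ikzf2 also rose with the number of GFP UMIs in the unmatched cells, while other genes had no common order. Ikzf2 stood at 113 CPM in cells with 0, 239 CPM with 1 and 285 CPM with 2 or more GFP UMIs in sample A, and at 104, 164 and 269 CPM in B. Samples 1 and 2 gave 156, 334 and 356 CPM and 123, 289 and 345 CPM. Ifitm3 stood at 108, 41.9 and 19.3 CPM in A and at 231, 24.9 and 100.2 CPM in B, so it had no common order past 1 UMI. In sample 2 the 23 cells with 1 GFP UMI stood at 265 CPM of Ifitm3, as high as the 247 CPM of cells with 0. Ccl3 stood at 50.4, 190 and 258 CPM in A and at 121, 199 and 385 CPM in B. In samples 1 and 2 it was lower with 1 GFP UMI than with 0, at 8.97, 4.85 and 131 CPM and at 16.9, 0 and 25.4 CPM.

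**Figure D4:**
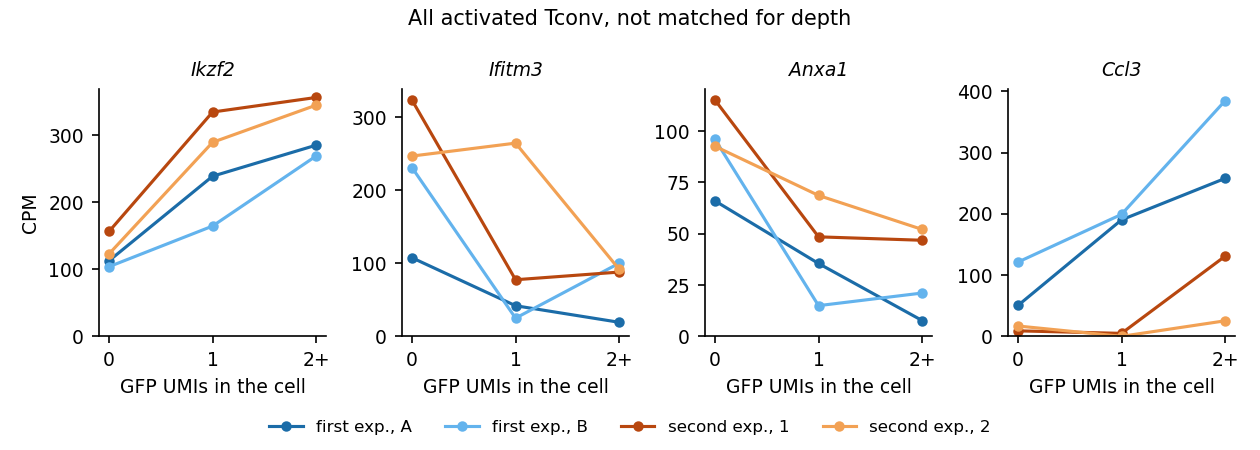
CPM of 4 genes (vertical axis) in all activated Tconv with 0, 1 and 2 or more GFP UMIs (horizontal axis), with 1 line per sample and no matching for depth. Ikzf2 is higher at each step in the 4 samples, Anxa1 is lower with 1 GFP UMI than with 0 in each, and Ifitm3 with 1 GFP UMI is as high as with 0 in sample 2. Ccl3 is lower with 1 GFP UMI than with 0 in samples 1 and 2.

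The Treg signature list had 37 members, of which 28 passed the filter on low counts in the 4-sample fit. Of these 5 were called higher and 1 lower, and the median log2 fold change was 0.23 beside 0.00 over all genes tested, of which 1.85% were called, as for the lists that follow. An edgeR unadjusted p under 0.05 was reached by 14 of the 28, beside 751 of all 7246 genes tested. In the first experiment 2 of 22 tested were called higher, Ikzf2 and Il10, beside 0.141% of all genes tested. There the list's median was 0.47 beside -0.01 over all genes tested. Of the 22, 12 had an edgeR unadjusted p under 0.05, beside 307 of 4955. Besides Ikzf2, Ikzf4 and Il10, the members called higher in the 4 samples were Rgs1, a regulator of G protein signalling (0.66 ± 0.16, edgeR adjusted p = 0.0199), and Fgl2, a fibrinogen-like protein gene (0.63 ± 0.15, edgeR adjusted p = 0.0261). The called lower member was Icos, a costimulatory receptor (-0.40 ± 0.09, edgeR adjusted p = 0.0145). Receptor genes that define Treg at the surface were not called. Tnfrsf18 (GITR) stood at 288, 241, 218 and 191 CPM against 213, 172, 187 and 171 CPM in samples A, B, 1 and 2 (0.27 ± 0.08, edgeR adjusted p = 0.101), and Ctla4 at 84.2, 41.0, 60.0 and 56.8 CPM against 40.4, 20.5, 51.2 and 62.4 CPM (0.23 ± 0.16, edgeR adjusted p = 0.717). For Ctla4 the first experiment alone gave 1.03 ± 0.26 (edgeR adjusted p = 0.396) and the second 0.00 ± 0.15. Il2ra stood between 3.51 and 17.9 CPM against 0 and 14.5 CPM. Lrrc32, which anchors latent TGF-β on Treg, was below the filter, with 5, 2, 2 and 2 UMIs against 0 in every GFP-negative sum. The Treg marker Itgae, also below it, held 4, 3, 3 and 8 UMIs against 0, 3, 2 and 5 in samples A, B, 1 and 2. Gpr83, below it too, stood at 5.27, 12.8, 1.36 and 0 CPM against 1.76, 0, 1.38 and 0 CPM. Of 9 tested genes known to be lower in Treg, 1 was called, Themis (-0.50 ± 0.11, edgeR adjusted p = 0.00819), and it was lower.

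As a check of the class, the summed level of the 8 Treg markers was 1236, 812, 723 and 669 CPM in GFP-positive against 1074, 622, 477 and 437 CPM in GFP-negative cells of samples A, B, 1 and 2. All 8 had at least 1 UMI. Ikzf2, called above from the same sums, is 1 of the 8 and made most of that difference in each sample. It stood at 260, 215, 353 and 340 CPM against 104, 87.1, 148 and 115 CPM, so the summed level is not separate support. Izumo1r, listed under its older symbol Folr4, made up much of the sum in A, at 579 against 708 CPM, and went the other way from Ikzf2. The 7 T cell markers summed to 4212 to 7214 CPM in GFP-positive and 4130 to 7133 CPM in GFP-negative cells. For the B cell markers the range was 125 to 158 CPM against 94.7 to 171 CPM, for plasma cell markers 0 to 7.05 CPM against 1.76 to 11.1 CPM, and for myeloid markers 341 to 384 CPM against 307 to 401 CPM. The CD8 T and NK cell markers gave 41.6 to 140.4 CPM against 39.4 to 128 CPM, with Klra8 at 0 throughout, and gamma delta and NKT cell markers 0 to 19.3 CPM against 0.466 to 10.5 CPM. Erythroid markers were high in sample B in both groups (648 and 519.8 CPM) and reached at most 199 CPM elsewhere. Among the markers of these other cell types, Cd79b, which B cells use for antigen receptor signalling, was the 1 gene called. It stood at 28.1, 15.4, 30.0 and 29.0 CPM against 1.76, 7.68, 13.8 and 6.05 CPM (1.78 ± 0.28, edgeR adjusted p = 0.000233). Treg-annotated cells of the same samples held 15.0, 14.2, 11.7 and 39.2 CPM of Cd79b. In both WT samples Treg held 17.5 CPM, beside 9.10 and 9.58 CPM in activated Tconv. Of 9 B cell markers in the matrix 5 were tested, and those besides Cd79b were not called. Ms4a1 had at most 1.38 CPM, but Cd74 stood at 44.8 to 58.9 CPM against 23.0 to 75.4 CPM. Ighm stood at 21.1 to 57.9 CPM against 27.7 to 53.8 CPM, and H2-Ab1 at 10.5 to 18.4 CPM against 7.03 to 20.8 CPM.

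Of 26 proliferation genes, 11 were called higher and 0 lower in the 4-sample fit, with a median log2 fold change of 0.32. None of 23 was called in the first experiment (5 at an unadjusted p under 0.05), and 16 of 26 were in the second. Over all genes tested, 0.141% were called in the first experiment and 2.36% in the second. Cenpa, the histone variant of centromeres, stood at 161, 312, 364 and 409 CPM against 87.8, 164, 284 and 255 CPM (0.62 ± 0.09, SE, edgeR adjusted p = 4.57e-05), and Ccnb2 encodes a cyclin of mitosis (0.56 ± 0.09, edgeR adjusted p = 0.000347). Dividing cells made up 10.5%, 22.6%, 28.3% and 33.2% of the matched GFP-positive and 9.26%, 12.9%, 21.2% and 25.7% of the matched GFP-negative cells. Since 1 cluster is annotated as dividing cells, matching within clusters favours the loss of cell cycle calls. In samples 1 and 2, 52 of 95 and 67 of 122 cells of that cluster were GFP-positive, so such matching left some of them without a partner. With partners taken from the same cluster, 0 of the proliferation genes were called by edgeR (7 at an unadjusted p under 0.05), Cenpa gave 0.24, and 45 genes were called in all, 44 of them among the 134. Under that matching Ikzf2 (1.25, edgeR adjusted p = 4.64e-09), Ifitm3 (-1.66, edgeR adjusted p = 2.31e-10), Ifitm2 (-1.12) and Ccl3 (1.65, edgeR adjusted p = 0.00166) were still called, and Ccl4 (0.91, edgeR adjusted p = 0.322) was not.

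Among effector genes the picture was mixed in the 4-sample fit. Of 17 Th1 and cytotoxic genes, 4 were called higher and 2 lower, with a median log2 fold change of 0.02, beside 1.85% called and a median of 0.00 over all genes tested. The higher ones were Ccl3, Ccl4, Ccl5 and Ifng. Th1 cells made up 30.2%, 8.87%, 5.98% and 7.43% of the matched GFP-positive cells of samples A, B, 1 and 2. In the matched GFP-negative cells they made up 22.8%, 26.6%, 12.5% and 9.41%. With partners taken from the same cluster, 4 genes of the list were called higher, Ccl4 not among them, and 0 lower, beside 45 genes called in all. Interferon gamma (Ifng) stood at 212 against 87.8 CPM in A, 92.2 against 92.2 CPM in B, 113 against 45.0 CPM in sample 1 and 78.3 against 57.3 CPM in sample 2 (0.83 ± 0.14, edgeR adjusted p = 0.000743). Sample B showed no difference, and 1 cell gave 33 of the 121 UMIs of A. Ccl5 was called (0.35 ± 0.07, edgeR adjusted p = 0.00291) although B went the other way, with 11942 against 12981 CPM. Gzmb, which encodes granzyme B, was not called (0.34 ± 0.15, edgeR adjusted p = 0.391).

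Inhibitory and costimulatory receptors went both ways, with 2 of 16 called higher and 2 lower. Cd160, an inhibitory receptor that binds HVEM, was higher in each sample (0.65 ± 0.12, edgeR adjusted p = 0.00231), and Lag3, which binds MHC class II, was higher over the 4 samples (0.65 ± 0.16, edgeR adjusted p = 0.0238) but not in the first experiment (0.05 ± 0.17), with 198 against 225 CPM in A. The costimulatory receptor Cd28 was lower in each sample (-0.44 ± 0.08, edgeR adjusted p = 0.00193), and Icos was called lower over the 4 samples, with 197 against 190 CPM the other way in A. Of the Tfh list, 8 members were tested, with 1 called higher, the transcription factor Tox (0.58 ± 0.13), and 1 lower, Icos. The chemokine receptor Ccr2, 1 of 14 homing genes tested, was lower (-0.55 ± 0.11, edgeR adjusted p = 0.00589), with 188 against 134 CPM the other way in A.

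For other lists few or no genes were called in the 4-sample fit. None was called by edgeR or DESeq2 of 13 targets of IL-2 and STAT5, with a median of -0.01 and 2 at an edgeR unadjusted p under 0.05. The same held for 15 glycolysis genes (median 0.08, 2 at an unadjusted p under 0.05), 13 naive and resting genes (median -0.31, 5 at an unadjusted p under 0.05), and for 3 Th2 genes and 1 Th17 gene (0 at an unadjusted p under 0.05). Tcf7, a factor of naive and memory cells, missed the threshold (-0.41 ± 0.11, edgeR adjusted p = 0.0527), with sample 1 the other way. Of 27 genes of activation and memory, 1 was called higher and 3 lower, and of 11 immediate early genes 1 was called, Egr2 (1.35 ± 0.33, edgeR adjusted p = 0.0263), which stood lower in GFP-positive cells of B (12.8 against 30.7 CPM).

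In resting Tconv of the same 4 samples, the same contrast called 20 genes higher and 17 lower of 6684 tested (0.554%). Of these 37 genes, 18 were called in the same direction in activated Tconv, which is 48.6% of the resting and 13.4% of the activated calls. Ikzf2 gave 1.38 ± 0.12 in resting Tconv, and its difference between activated and resting was 0.01 ± 0.15 (SE). Cd81 gave 0.62 and Anxa1 -1.47 in resting Tconv, both called. For 3 of 7630 genes (0.0393%) the contrast itself differed between activated and resting Tconv, Ifitm3, Lmo4 and Ltb4r1. Lmo4, a LIM-domain transcriptional regulator, stood at 1.76 to 6.81 CPM in GFP-positive and 2.56 to 29.9 CPM in GFP-negative activated Tconv, with B the other way. Ltb4r1, a receptor of leukotriene B4, was called higher in activated GFP-positive Tconv (0.75 ± 0.18), with 8 against 11 UMIs the other way in B and 25 against 23 UMIs in A, and lower in resting GFP-positive Tconv (-1.08 ± 0.26, edgeR adjusted p = 0.0227), where samples A and B held 4.22 and 0 CPM in GFP-positive and 0 CPM in GFP-negative cells, so that both contrasts came mainly from samples 1 and 2.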

How the data were processed

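The deposited matrices hold whole-number UMI counts per gene and cell, for which the submitters' processing notes name Cell Ranger 3.0.2 and mm10. The authors' cell table gives the annotation, GFP, Cre and YFP counts, the percent of mitochondrial UMIs and a Scrublet doublet score per cell, per the file headers, and the deposited summary of each channel gives the fraction of reads in cells (0.597 and 0.534 in samples A and B). In ∆Foxp3 cells the matrix value of Foxp3 is the sum of Foxp3 and Cre, so that row was left out of the tests. The table's total exceeds the matrix sum by the GFP count (V2) or by 2 times that count (V3). Matching on the matrix sum was added after seeing the data, as were the settings with 1 GFP UMI and with the Scrublet criterion alone, and the test of the difference between experiments.

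Within each sample, each GFP-positive cell was matched with 1 GFP-negative cell on the total, and UMI counts were summed. Genes passing filterByExpr (minimum count 10) were tested with edgeR 4.0.16 (TMM, quasi-likelihood F test) with the sample as a block, since both sums of a pair come from the same sample. DESeq2 1.42.0 was an alternative. The scripts were tested on simulated data. The members and lists (17 pathway and 8 marker lists, 312 of 314 genes in the matrix, 8 by an older symbol) were chosen with earlier results of these data known. Named genes were the 12 highest and 12 lowest called in the first experiment and 8 and 8 over the 4 samples (at least 20 CPM, same direction in each sample), and up to 4 per list by p. Cd81, Cxcl10, Lmo4, Ltb4r1, Lrrc32, Itgae and Nrgn were named after their values were seen. Ifng, Gzmb, Il2ra and Ctla4 were also added then, Ctla4 besides meeting the list rule. Fgl2 is given as a called list member outside these rules. Samples A and B share 5 cell barcodes.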

Additional observations from a re-analysis of the deposited data

Results flagged for a closer look

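For 3 genes the difference between GFP-positive and GFP-negative cells was itself unlike in activated and resting Tconv, by edgeR's test of that difference: Ifitm3 (-1.37), Lmo4 (-2.13) and Ltb4r1 (1.83, all log2). Lmo4 gave 48.5 against 25.3 CPM in resting Tconv of sample A and 61.5 against 39.1 CPM in B, the opposite direction to activated Tconv of A. For 3 genes it was unlike in the second and the first experiment: Cd7 (-1.15), Cxcl10 (-2.25) and Lag3 (1.20). Cxcl10 stood at 91.3 against 21.1 CPM in sample A but at 20.5 against 25.6 CPM in B, so the first experiment's samples differ in sign.

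NKT cells, which entered no test and served only as a reference share, held GFP UMIs in 27.7% of cells in sample A and 32.4% in sample B, against 0.503% and 0% of NKT cells in WT samples. Of these cells 8 in A and 4 in B held 2 or more GFP UMIs. The source of these UMIs was not tested.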

How the results depend on the processing

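The first experiment's 7 calls became 0 without cells with other-cell markers or a high Scrublet score (edgeR, 65 genes at an unadjusted p under 0.05), 3 with DESeq2, 1 with no filter on low counts, 20 without matching, 24 with 2 or more GFP UMIs, 25 with DESeq2's size factors and 41 with the Scrublet criterion alone. The second experiment's 205 became 10 without cells with other-cell markers or a high Scrublet score, 92 matched within clusters, 1 with DESeq2, 13 with 1 GFP UMI, 72 with 2 or more and 21 thinned. The 4 samples' 134 became 0 without cells with other-cell markers or a high Scrublet score, 0 with 1 GFP UMI, 45 matched within clusters, 26 with DESeq2, 57 with 2 or more GFP UMIs, 85 with the Scrublet criterion alone and 45 thinned, and ranged from 56 to 204 with 1 sample left out. Without the replicate block, calls were 1 in the first experiment, 13 in the second, 0 in the 4 samples and 0 for activated against resting Tconv. The 3 calls of activated against resting became 11 without matching and ranged from 1 to 13 with 1 sample left out.

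Signs turned for Ccl4 in the first experiment (-0.012) and, in the 4 samples, for Ccr2 (0.021), Id2 (0.080), Lag3 (-0.65) and Tox (-0.057), all with 1 GFP UMI, for Ccl5 (-0.076) and Icos (0.11) without cells with other-cell markers or a high Scrublet score, for Ccl5 thinned (-0.14) and for Nrgn (from -0.15 without sample 2 to 3.06 without sample 1). Of 47 named genes called over the 4 samples, 40 never turned sign, and 0 were called in every setting. The settings with 0 calls tested fewer genes on fewer cells, except that without the block. The causes were otherwise not tested.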
